A study of Mus musculus with 12 samples.

Results

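The 10 genes followed here carry out V(D)J recombination and join the broken DNA ends, and were read in mouse thymocytes with and without the paired microRNA genes named miR-181a/b-1. They are Rag1, Rag2, Dntt, Lig4, Xrcc4, Xrcc5, Xrcc6, Dclre1c, Prkdc and Nhej1, chosen by name as a list, and they make up 10 of the 55335 gene rows in each count table. All 10 were found by symbol and all 10 passed the low-count filter in both assays. The mice were 6 weeks old and kept under SPF conditions, and their thymocytes went into RNA-seq and into ribosome footprinting, which sequences the mRNA fragments that ribosomes cover. Each assay had 3 wild-type (WT) libraries and 3 from the miR-181a/b-1 knockout (KO), by their labels, which gives 12 libraries in 4 groups. All cells, WT included, were placed in buffer with cycloheximide, which stalls ribosomes, and had been passed through strainers. The labels name no sort by cell type, strain, sex or design of the knockout allele.

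V(D)J recombination assembles the antigen receptor genes of T and B cells from separate gene segments. The RAG1 and RAG2 proteins together cut the DNA beside the segments and leave hairpin-sealed coding ends. The Ku heterodimer (encoded by Xrcc5 and Xrcc6) holds the ends, the kinase DNA-PKcs (Prkdc) and the nuclease Artemis (Dclre1c) open the hairpins, terminal deoxynucleotidyl transferase (TdT, encoded by Dntt) adds untemplated bases, and DNA ligase IV (Lig4) with its partners XRCC4 (Xrcc4) and XLF (Nhej1) seals the junction. In the thymus, recombination of the T cell receptor beta chain takes place in CD4-CD8- cells, and that of the alpha chain in CD4+CD8+ cells, which make up most thymocytes. miR-181a is abundant in CD4+CD8+ thymocytes and is known for setting the sensitivity of T cell receptor signalling there.

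The sequences that the knockout bears on are the mature microRNAs of the deleted pair and their relatives. They are printed because every member of the family carries the same seed (bases 2 to 8, in capitals), the part that pairs with target mRNAs. The sequences are from RefSeq (GRCm38.p6), written 5′ to 3′. Mir181a-1 gives its 5p product at chr1:137966468-137966490, plus strand, and Mir181b-1 at chr1:137966650-137966673, plus strand.
mmu-miR-181a-5p: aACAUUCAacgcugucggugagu
mmu-miR-181b-5p: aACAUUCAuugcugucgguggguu
mmu-miR-181c-5p: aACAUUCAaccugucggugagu
mmu-miR-181d-5p: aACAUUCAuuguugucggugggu
The 6 Mir181 genes listed in RefSeq give these 4 distinct 5p sequences and 1 shared seed. The 181a and 181b sequences are also encoded by Mir181a-2 and Mir181b-2 on chromosome 2, outside the deleted pair. Whether any of the 10 genes carries a match to the seed was not analysed here.

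Reads in genes numbered 4479182 to 8180286 per RNA-seq library and 4069968 to 17859770 per footprint library, with KO replicate 3 the shallowest of the footprints. The deleted Mir181a-1 row had 132 to 166 CPM (reads of a gene scaled to the library's total) in WT footprints and 0.463 to 1.04 CPM in KO footprints. In RNA-seq the WT libraries together held 57 and the KO libraries 67 reads of it (edgeR FDR 0.756), so only the footprint labels could be checked this way, and directions in RNA-seq rest on the labels alone. No read of Mir181b-1 was counted in any library. With 3 counts over a group's reads as the limit, for counting error only, that allows levels of up to 0.148 (WT) and 0.153 CPM (KO) for RNA-seq and 0.0654 (WT) and 0.0987 CPM (KO) for footprints.

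The deposited counts have a property that touches every result. WT and KO libraries with the same replicate number deviated from their group means in opposite directions, with correlations across genes of -0.92 to -0.86 in RNA-seq and -0.98 in footprints, while libraries with different numbers correlated at 0.20 to 0.63 and 0.36 to 0.63. The authors named these counts adjusted, and the method of adjustment is not given in the sources used here. Values within a group may therefore vary less than mice do. For Xrcc4 RNA and Dclre1c footprints they varied less than counting error alone would be expected to give. Fits that leave out a library keep that spread. Omitting the WT or the KO library of the same number can shift a result alike, so the omissions are not separate checks. For this reason each call of the 10 genes and of genes that work with them is followed by its value in a fit that holds the replicate number as a block.

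Across the 10 genes, Xrcc4 RNA rose in KO, Rag1 footprints fell and Dclre1c footprints rose, at an edgeR false discovery rate (FDR) under 0.05 over all genes tested. That is 1 of 10 genes in RNA-seq, where 6.91% of 13652 genes were called (3.48% higher and 3.43% lower in KO), and 2 of 10 in footprints, where 17.6% of 13509 were (9.25% higher and 8.34% lower). A share of 1 or 2 in 10 lies near those backgrounds. DESeq2 called 0 of the 10 in RNA-seq (background 3.9%), where 4 had an unadjusted edgeR p under 0.05 (23.8% of all genes did), and the same number as edgeR, 2, in footprints (background 9.24%). A joint fit of both assays called 4 in RNA-seq, namely Rag1, Dntt, Xrcc4 and Dclre1c (background 13.1%), and 2 in footprints (background 15.5%). With the replicate block none of the 10 was called in RNA-seq or in footprints (backgrounds 0.806% and 3.02%), where 2 of the 10 had an unadjusted p under 0.05 in each, beside 9.71% and 16.2% of all genes. Rag1, Dntt, Xrcc4 and Dclre1c had WT and KO libraries that did not overlap, in RNA-seq and again in footprints, with Rag1 lower and the other three higher in KO. That is 4 of 10 in each assay, where 30.9% of genes in RNA-seq and 38.1% in footprints did not overlap. The median log2 fold change of KO over WT over the 10 genes was 0.11 in RNA-seq, against -0.00053 over all genes tested, and -0.0042 in footprints, against -0.0090. In bulk samples, a change in the share of cells that express a gene and a change in RNA per cell cannot be told apart.

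**Figure D1:**
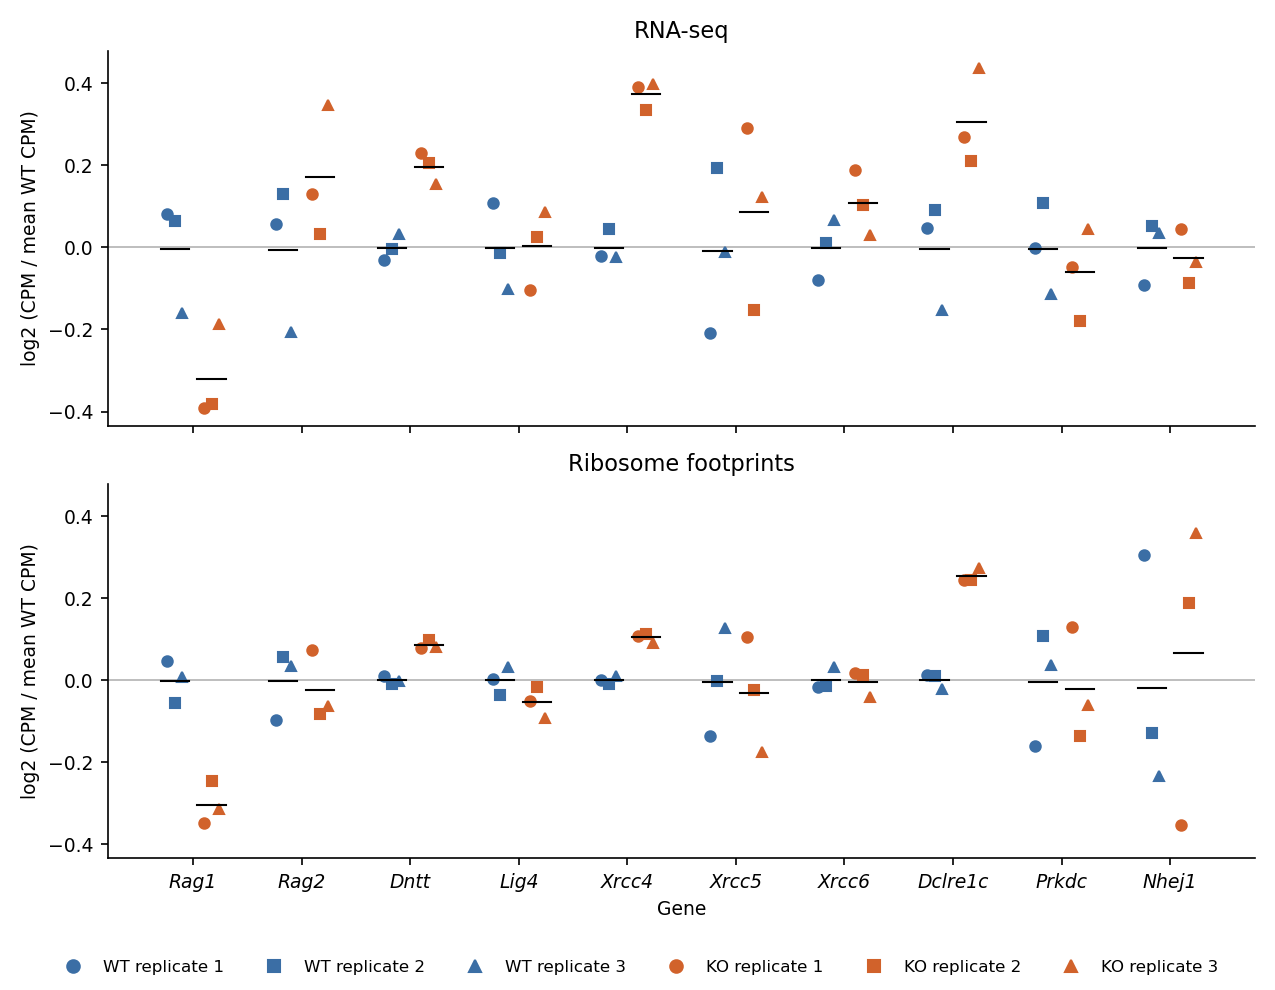
Each of the 10 genes in every library, as log2 of its CPM over the mean WT CPM of the same assay, with RNA-seq above and footprints below, marks for the replicate numbers and black lines for the group means. The WT and KO points of Rag1, Dntt, Xrcc4 and Dclre1c do not overlap in either assay, and those of the other 6 genes do.

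Rag1, which encodes the subunit that cuts DNA, had the most reads of the 10 genes, a count not corrected for length. Its RNA stood at 7565, 7474 and 6399 CPM in the WT libraries and at 5444, 5486 and 6279 CPM in the KO libraries. The genotypes did not overlap, though WT replicate 3 and KO replicate 3 lay close together. The means were 7146 ± 649 and 5736 ± 471 CPM (SD, n = 3), a log2 fold change of -0.32 (edgeR FDR 0.0993, SE 0.09), which did not pass the threshold. Rag1 footprints stood at 10264, 9547 and 9977 CPM in WT and at 7798, 8368 and 7986 CPM in KO. Here every KO library lay well below every WT library. The means were 9929 ± 361 and 8051 ± 291 CPM (SD, n = 3), so Rag1 footprints fell by 18.9% in KO, with a log2 fold change of -0.30 (edgeR FDR 0.00866, SE 0.05). The call held when any 1 of the 6 libraries was left out, and the FDR was 0.116 with the replicate block. These omissions are not 6 separate checks, since leaving out WT or KO replicate 1 gave log2 fold changes of -0.28 and -0.27. Rag1 alone took 0.958% to 1.03% of all footprint reads in genes in WT and 0.775% to 0.835% in KO.

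Rag2, the partner without which RAG1 does not cut, showed no step between the genotypes. Rag2 RNA stood at 168, 177 and 140 CPM in WT and at 177, 166 and 206 CPM in KO, and the genotypes overlapped. The log2 fold change was 0.18 (edgeR FDR 0.410, SE 0.12, 95% interval -0.10 to 0.46). Rag2 footprints stood at 475, 529 and 521 CPM in WT and at 535, 481 and 487 CPM in KO, again with overlap. Their log2 fold change was -0.02 (edgeR FDR 0.847, SE 0.06, 95% interval -0.17 to 0.13). The intervals leave room for a change of either sign.

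Because Rag1 and Rag2 act as 1 complex, the ratio of their reads was taken within each library, a measure chosen after the values were seen. In RNA-seq there were 44.9, 42.2 and 45.6 Rag1 reads per Rag2 read in the WT libraries and 30.7, 33.1 and 30.5 in the KO libraries. The ratio was lower in every KO library than in every WT library, with a log2 difference of -0.49. In footprints the ratio was 21.6, 18.0 and 19.1 in WT and 14.6, 17.4 and 16.4 in KO. These groups also did not overlap, but WT replicate 2 and KO replicate 2 were close, and the log2 difference was -0.28. Both comparisons had an exact two-sided permutation p of 0.1, the smallest that 3 against 3 libraries allow. It was 0.15 after Benjamini-Hochberg adjustment over the 6 ratios compared. Rag2 overlaps the gene Iftap in RefSeq, and the strand setting of the counts is not stated, so the ratio is less certain.

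**Figure D2:**
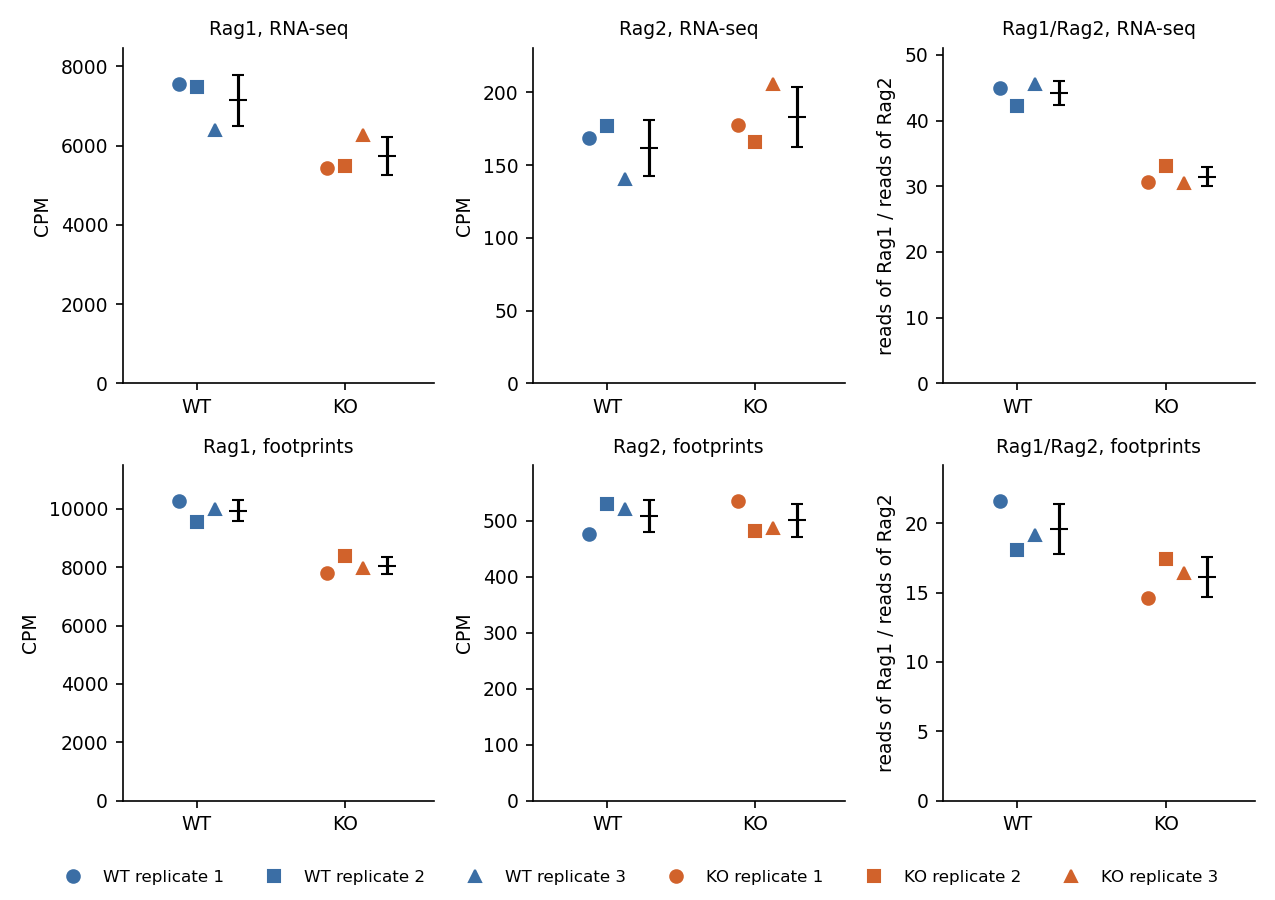
Rag1 and Rag2 in CPM and the ratio of their reads in each library, with RNA-seq in the upper row and footprints in the lower row. Points are libraries, marked by replicate number, and black bars are the mean with the SD of 3. Rag1 and the ratio are lower in all KO libraries than in all WT libraries, while Rag2 overlaps between the genotypes.

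Dntt encodes TdT, the polymerase that adds bases at the junctions. Its RNA stood at 1029, 1049 and 1075 CPM in WT and at 1232, 1212 and 1170 CPM in KO. All KO libraries lay above all WT libraries, yet the log2 fold change of 0.20 (edgeR FDR 0.0705, SE 0.05) did not pass the threshold. Dntt footprints stood at 3606, 3554 and 3577 CPM in WT and at 3780, 3828 and 3788 CPM in KO. The difference was small and without overlap, with a log2 fold change of 0.09 (edgeR FDR 0.119, SE 0.03).

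Dclre1c encodes Artemis, the nuclease that opens the hairpin ends. Its footprints stood at 59.7, 59.6 and 58.3 CPM in WT and at 70.2, 70.1 and 71.5 CPM in KO. The 2 genotypes were far apart relative to the spread within each. The means were 59.2 ± 0.758 and 70.6 ± 0.80 CPM (SD, n = 3). These SDs are smaller than counting error alone would be expected to give at 292 to 1082 reads per library. The gap relative to them, and the SE and FDR that follow, may therefore overstate the evidence. Dclre1c footprints rose by 19.2% in KO, with a log2 fold change of 0.25 (edgeR FDR 0.00546, SE 0.03). The call held when any 1 library was left out, and the FDR was 0.189 with the replicate block. DESeq2 gave an adjusted p of 0.0495, just under the threshold, and 0.478 with the block. Dclre1c RNA stood at 135, 139 and 117 CPM in WT and at 157, 151 and 177 CPM in KO. The RNA values pointed the same way, with no overlap and a log2 fold change of 0.31 (edgeR FDR 0.0997, SE 0.09), which did not pass. Prkdc, whose product DNA-PKcs activates Artemis, overlapped between genotypes in both assays. Its means were 147 ± 11.3 CPM in WT and 141 ± 10.9 in KO RNA-seq and 122 ± 11.5 and 120 ± 11.6 CPM in footprints (SD, n = 3). The 95% interval of its log2 fold change was -0.26 to 0.15 in RNA-seq and -0.24 to 0.21 in footprints.

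Xrcc5 and Xrcc6 encode the 2 subunits of Ku, the ring that slides onto broken ends. Xrcc6 RNA ranged from 296 to 328 CPM in WT and from 320 to 357 CPM in KO, and its footprints from 737 to 762 and from 725 to 755 CPM. Xrcc5 RNA ranged from 21.5 to 28.5 CPM in WT and from 22.4 to 30.5 CPM in KO, and its footprints from 65.2 to 78.2 and from 63.5 to 77.1 CPM. WT and KO overlapped in all of these, and no fit called either gene. The 95% interval of the log2 fold change in footprints was -0.09 to 0.08 for Xrcc6 and -0.22 to 0.21 for Xrcc5. The number of Xrcc6 reads per Xrcc5 read, 12.7 ± 1.43 in WT and 12.8 ± 1.88 in KO RNA-seq and 10.5 ± 0.788 and 10.6 ± 0.819 in footprints (SD, n = 3), also overlapped, with exact two-sided permutation p values of 1 and 0.7.

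Xrcc4 encodes the scaffold that binds and stabilises DNA ligase IV. Its RNA stood at 31.4, 32.8 and 31.3 CPM in WT and at 41.7, 40.1 and 41.9 CPM in KO, from 170 to 337 reads per library. Every KO library lay above every WT library by more than the spread within either group. That spread is smaller than counting error alone would be expected to give at these read numbers, so it is a weak yardstick. Xrcc4 RNA rose by 29.6%, with a log2 fold change of 0.38 (edgeR FDR 0.0190, SE 0.06). This call rests on all libraries together: the FDR was 0.0593 to 0.0922 when any 1 of the 6 was left out and 0.435 with the replicate block, and DESeq2 gave an adjusted p of 0.167. Xrcc4 footprints stood at 55.4, 55.0 and 55.8 CPM in WT and at 59.7, 60.0 and 59.0 CPM in KO. They were higher in each KO library by a smaller step, with a log2 fold change of 0.11 (edgeR FDR 0.0725, SE 0.03), which did not pass.

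Lig4, the ligase itself, showed no such step. Lig4 RNA stood at 154, 141 and 133 CPM in WT and at 133, 145 and 151 CPM in KO, and its footprints at 187, 182 and 191 and at 180, 184 and 175 CPM. The genotypes overlapped in both assays, with 95% intervals of the log2 fold change of -0.19 to 0.20 in RNA-seq and -0.14 to 0.04 in footprints. The number of Xrcc4 reads per Lig4 read was 0.224 ± 0.0174 in WT and 0.289 ± 0.0215 in KO RNA-seq, and 0.297 ± 0.00511 and 0.332 ± 0.00609 in footprints (SD, n = 3). Neither pair of groups overlapped, and each comparison had an exact two-sided permutation p of 0.1 (0.15 after adjustment over the 6 ratios). Nhej1, which encodes XLF, had the fewest reads, 31 to 61 per RNA-seq library and 39 to 161 per footprint library. Its footprints ranged from 6.34 to 9.20 CPM in WT and from 5.83 to 9.55 CPM in KO, and the 95% interval of its log2 fold change was -0.48 to 0.54.

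**Figure D3:**
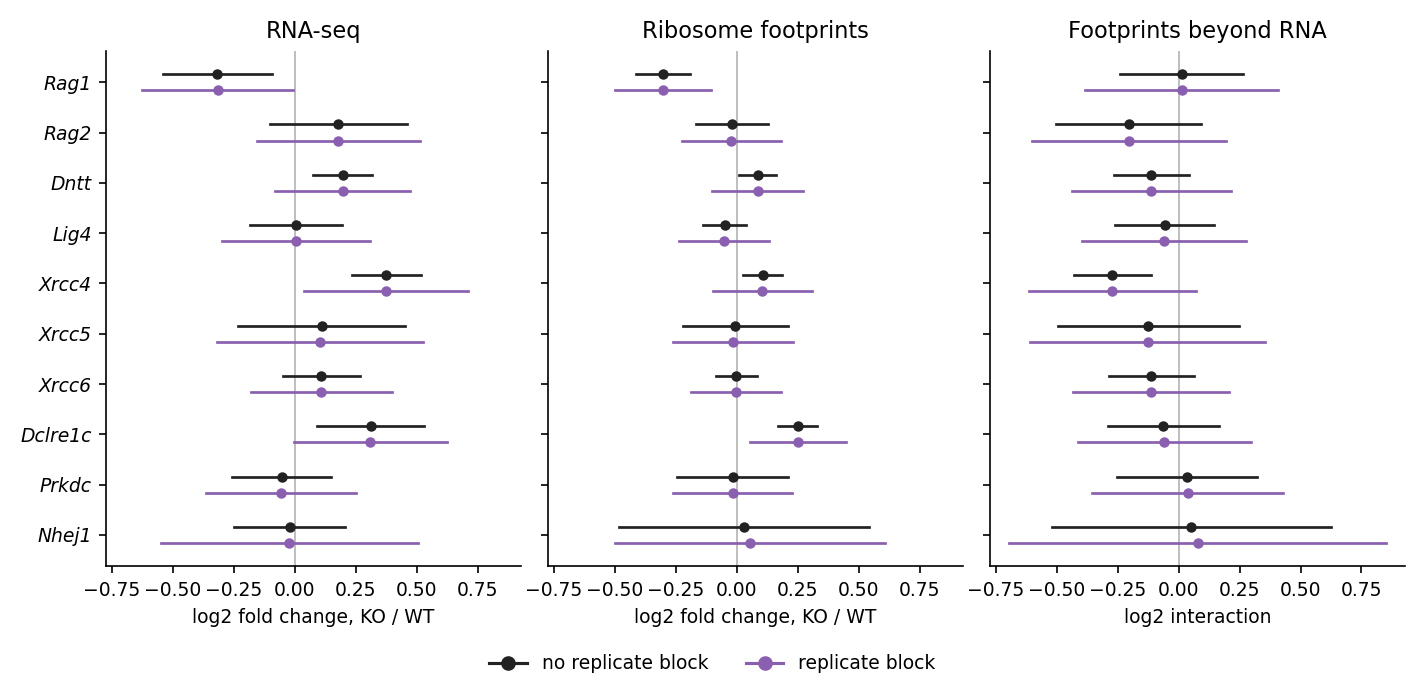
Log2 fold change of KO over WT for each of the 10 genes in RNA-seq and in footprints, and the log2 interaction of genotype and assay (footprints beyond RNA), as points with 95% intervals from the fit without (black) and with (purple) the replicate block. The points hardly move with the block while the intervals widen, for Rag1 footprints from -0.41 to -0.19 without it to -0.50 to -0.11 with it.

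Whether footprints changed more or less than RNA, called translation here, was asked with an interaction term of genotype and assay fitted to the 12 libraries. None of the 10 genes was called by edgeR or by DESeq2, where edgeR called 0.211% of 11854 genes (0.0169% with the replicate block within each assay), and 1 of the 10 had an unadjusted edgeR p under 0.05, beside 14.0% of all genes. That gene was Xrcc4, whose footprints changed less than its RNA, with a log2 interaction of -0.27 (edgeR FDR 0.134, SE 0.07). For Rag1 the interaction was 0.01 (SE 0.12, 95% interval -0.24 to 0.27), so its RNA and footprints were lower in KO by similar amounts, within an interval that is wide beside the change itself. For Rag2 it was -0.20 (edgeR FDR 0.543, SE 0.14), for Dntt -0.11 (edgeR FDR 0.519, SE 0.07) and for Dclre1c -0.06 (edgeR FDR 0.845, SE 0.10). The median over the 10 genes was -0.09, against 0.01 over all genes tested.

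In WT cells the 10 genes differed widely in how many footprints they had for their RNA. This was measured as the log2 ratio of mean footprint CPM to mean RNA-seq CPM, less the median of that ratio over 11854 genes, and is a description with no test. Dntt had the highest value of the 10 at 1.97, the 94.3rd percentile of all genes, followed by Rag2 at 1.85, Xrcc5 at 1.72 and Xrcc6 at 1.45. The SD over footprint libraries and over RNA-seq libraries was 0.01 and 0.03 for Dntt, 0.08 and 0.18 for Rag2 and 0.13 and 0.20 for Xrcc5, so the order of these 3 neighbours is not resolved beyond their spread. Xrcc4 stood at 1.00, Rag1 at 0.67, Lig4 at 0.58 and Nhej1 at 0.14. Prkdc lay near the median at -0.07, and Dclre1c was the only one of the 10 clearly below it at -0.94, the 23.5th percentile. Rag1 and Rag2, which act in 1 complex, thus stood apart on this scale by more than their spread over libraries (0.05 and 0.13 for Rag1). Rag2, Xrcc6, Dclre1c and Prkdc each overlap another gene in RefSeq. The strand setting of the counts is not stated, so the ratios of these genes are less certain. RNA-seq reads within a gene but outside its coding sequence count in the ratio, in a share not known here. Reads in no annotated feature, 50.9% to 57.1% in RNA-seq and 5.32% to 6.39% in footprints, were left out of it.

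**Figure D4:**
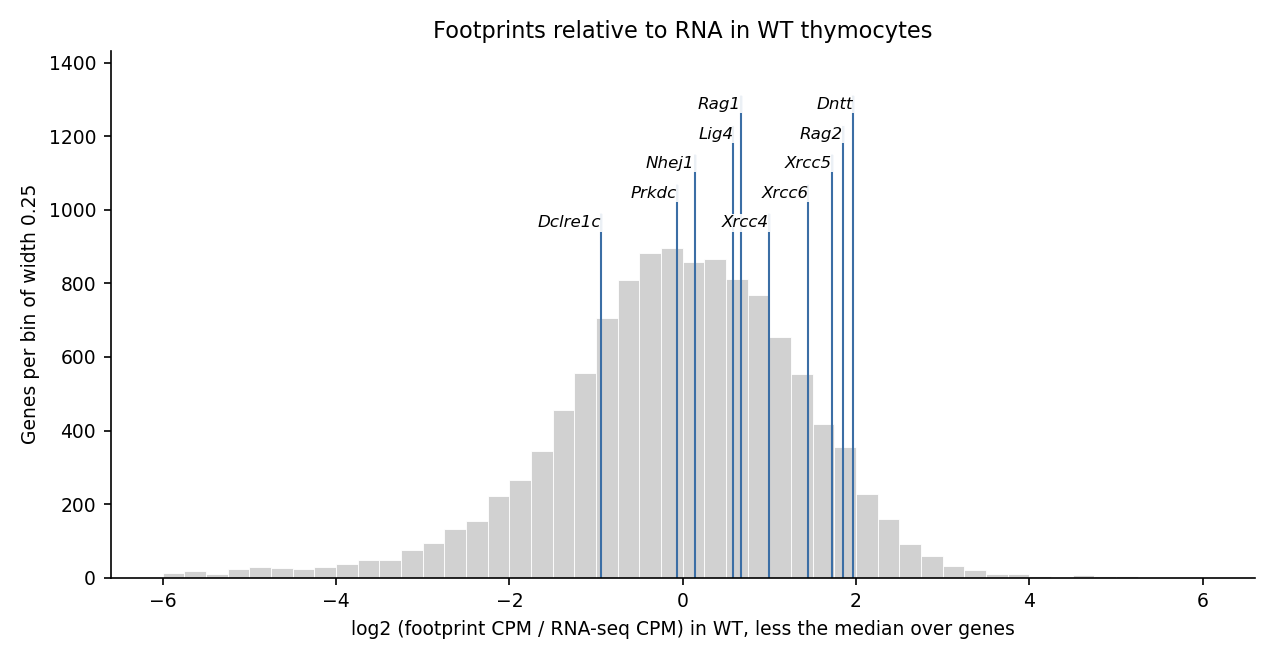
Log2 ratio of footprint CPM to RNA-seq CPM in WT, less the median over genes, for 11854 genes (grey histogram, genes per bin of width 0.25) with the 10 genes as labelled lines. Dntt, Rag2, Xrcc5 and Xrcc6 lie in the upper part, from 1.45 to 1.97, and Dclre1c lies below the median at -0.94.

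Genes that work with these 10 were taken as 5 lists of 48 genes in all, every one of them tested. In RNA-seq 2 of the 48 rose and 1 fell, and in footprints 2 rose and 1 fell, so 3 of 48 were called in each assay beside backgrounds of 6.91% and 17.6%. For translation edgeR and DESeq2 called none of the 48, with 12 at an unadjusted edgeR p under 0.05, beside 14.0% of all genes. With the replicate block edgeR called none in any of the 3 fits, with 1 gene in RNA-seq, 3 in footprints and 1 for translation at an unadjusted p under 0.05, beside 9.71%, 16.2% and 3.28% of all genes. The median log2 fold change over the 48 was 0.08 in RNA-seq, 0.05 in footprints and -0.03 for translation.

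Among 4 cofactors and partners of RAG, footprints of Hmgb2, a DNA-bending protein that helps RAG bind, fell from 42.7 ± 2.7 to 33.6 ± 2.32 CPM (SD, n = 3), a log2 fold change of -0.37 (edgeR FDR 0.0158, 0.149 with the block). Footprints of Kpna1, an importin that binds RAG1, rose from 96.9 ± 2.56 to 117 ± 3.25 CPM (SD, n = 3), a log2 fold change of 0.27 (edgeR FDR 0.00640, 0.145 with the block). The Hmgb2 call was lost when WT replicate 2 or either of KO replicates 1 and 2 was left out, and the Kpna1 call held under each of the 6 omissions. The list had no call in RNA-seq. None of 10 other classical end-joining factors, such as the polymerases Polm and Poll, was called in either assay by edgeR or DESeq2 (1 and 2 had an unadjusted edgeR p under 0.05), with median log2 fold changes of 0.07 in RNA-seq and 0.11 in footprints. None of 8 genes of alternative end joining, such as Polq and Parp1, was called by either tool (2 and 0 had an unadjusted edgeR p under 0.05), with medians of 0.06 and -0.04. Over all genes tested, 23.8% in RNA-seq and 33.1% in footprints had an unadjusted edgeR p under 0.05.

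Among 12 genes of double-strand break signalling, only Trp53bp1, which protects broken ends from resection, was called, in RNA-seq alone. It rose from 109 ± 1.52 to 129 ± 1.54 CPM (SD, n = 3), a log2 fold change of 0.24 (edgeR FDR 0.0370, 0.625 with the block). Among 14 transcriptional regulators of Rag1 and Rag2, Tcf7 RNA, encoding TCF-1, fell by 0.26 on the log2 scale (edgeR FDR 0.0477, 0.563 with the block), and Tcf12 footprints, encoding the E protein HEB, rose by 0.14 (edgeR FDR 0.0288, 0.446 with the block). Each of the Trp53bp1, Tcf7 and Tcf12 calls was lost when any 1 library was left out.

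Marker genes of thymocyte stages and of other cells were read in the same fits, since Rag1 is expressed by stage. All 10 markers of CD4+CD8+ thymocytes had reads, and their summed level was 8613 to 9200 CPM in WT and 9005 to 9537 CPM in KO RNA-seq, and 10013 to 10625 and 11494 to 12246 CPM in footprints. Of these 10, 1 rose in RNA-seq, and in footprints 2 rose and 2 fell, where edgeR called 6.91% and 17.6% of all genes. DESeq2 called 0 in RNA-seq and 5 in footprints, beside 3.9% and 9.24% of all genes. An unadjusted edgeR p under 0.05 was found for 3 and 7, beside 23.8% and 33.1% of all genes. The footprint rises included Cd4 (log2 fold change 0.57, edgeR FDR 0.00335, 0.0121 with the block) and Themis (0.23, edgeR FDR 0.0326). The falls included Ptcra (-0.37, edgeR FDR 0.0293). Ptcra is also expressed by CD4-CD8- cells, so its fall is not particular to the CD4+CD8+ stage. Of the 8 CD4-CD8- markers Il2ra rose, by 0.85 in RNA-seq (edgeR FDR 0.00675) and 0.38 in footprints (edgeR FDR 0.00159), and both calls held with the block (0.0198 and 0.0446). Of the 6 tested in RNA-seq, 4 were higher and 2 lower in KO, and of the 8 tested in footprints 6 were higher and 2 lower. The median log2 fold changes of these CD4-CD8- markers were 0.06 and 0.07. The summed level of that list was 190 to 207 CPM in WT and 237 to 253 CPM in KO RNA-seq, and 272 to 282 and 309 to 320 CPM in footprints. Single genes carried much of these sums: Il2ra went from 52.9 ± 4.93 to 95.2 ± 8.04 CPM in RNA-seq and from 92.6 ± 1.62 to 120 ± 2.45 CPM in footprints, and Cd4 from 1949 ± 123 to 2896 ± 174 CPM in footprints (SD, n = 3). Of the 10 CD4+CD8+ markers, 4 were higher and 6 lower in KO RNA-seq and 5 higher and 5 lower in footprints, with median log2 fold changes of -0.0081 and 0.03. The part of stage makeup in the Rag1 values was not tested.

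Of 8 markers of mature thymocytes, 3 fell in RNA-seq, among them Klf2 (-0.82, edgeR FDR 0.0223) and Ms4a4b (-0.79, edgeR FDR 0.0169), and 1 rose, Cd69 (0.64, edgeR FDR 0.0315). In footprints 2 fell and 2 rose, and of the 3 named by the rule Ms4a4b (-0.76, edgeR FDR 0.00547) and Itgb7 (-0.45, edgeR FDR 0.0464) fell and Cd69 rose (0.60, edgeR FDR 0.00309). Over the 8 genes, 6 were lower in KO in each assay, with a median log2 fold change of -0.57 in RNA-seq and -0.19 in footprints, and 7 in RNA-seq and 6 in footprints had an unadjusted edgeR p under 0.05. Over all genes tested, 23.8% in RNA-seq and 33.1% in footprints had an unadjusted edgeR p under 0.05. EdgeR called 6.91% of all genes in RNA-seq and 17.6% in footprints. DESeq2 called 5 of the 8 in RNA-seq and 4 in footprints, beside 3.9% and 9.24% of all genes. The summed level of the 8 was 496 to 529 CPM in WT and 500 to 531 CPM in KO RNA-seq, and 843 to 920 and 816 to 886 CPM in footprints. Rises and falls both enter this sum. In RNA-seq Cd69 went from 74.1 ± 9.12 to 115 ± 13.5 CPM and Ms4a4b from 61.3 ± 7.3 to 35.4 ± 3.81 CPM (SD, n = 3). Of the markers of cycling cells and of myeloid and dendritic cells, edgeR and DESeq2 called none in either assay. Of these, 1 cycling marker in RNA-seq had an unadjusted edgeR p under 0.05. Their summed levels overlapped between genotypes. Cycling markers were 4 higher and 2 lower in KO RNA-seq and 0 higher and 6 lower in footprints (medians 0.03 and -0.11). Myeloid and dendritic markers were 1 higher and 5 lower in RNA-seq and 2 higher and 3 lower in footprints (medians -0.22 and -0.12). Among markers of B cells, which also use the recombination genes, Cd79b footprints rose (0.48, edgeR FDR 0.00416), with a summed level of 43.9 to 58.6 CPM in WT and 56.6 to 76.6 CPM in KO, of which Cd79b took 34.3 ± 1.66 and 47.5 ± 2.47 CPM (SD, n = 3). In each assay 3 of the 6 B cell markers were higher and 3 lower in KO, with median log2 fold changes of 0.08 in RNA-seq and -0.07 in footprints. Krt5 RNA (-1.07, edgeR FDR 0.0228) and Epcam footprints (-0.50, edgeR FDR 0.0339), of thymic epithelium, and Hbb-bs RNA (-0.62, edgeR FDR 0.0155) and Alas2 footprints (-0.74, edgeR FDR 0.0300), of erythroid cells, fell. The epithelial list came to 18.8 to 22.1 CPM in WT and 14.2 to 17.3 CPM in KO RNA-seq, and to 75.3 to 82.1 and 59.7 to 70.3 CPM in footprints. Of the epithelial markers tested, 1 was higher and 3 lower in KO RNA-seq, and 1 higher and 4 lower in footprints. The erythroid list summed to 69.0 to 81.2 and 42.2 to 51.6 CPM in RNA-seq and to 35.5 to 67.0 and 30.4 to 65.7 CPM in footprints. Of the erythroid markers tested, 1 was higher and 3 lower in KO in each assay. Of the marker calls named here, those of Cd4, Il2ra, Cd79b and, in footprints, Ms4a4b and Cd69 held under every omission of 1 library and with the block (FDR 0.0466 for Cd79b, 0.00648 for Ms4a4b and 0.0138 for Cd69), and each of the others named was lost with the block and under at least 4 of 6 omissions. No marker of any list was at 0 in all libraries of an assay.

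Genes whose levels moved most like Rag1, Rag2 and Dntt over the 12 libraries were found by the Pearson correlation of log2 CPM centred within each assay, among 8099 genes. The closest to Rag1 were Ubqln1 (r = 0.98), Ostm1 (0.97) and Mier1 (0.97). Their log2 fold changes in footprints, which their choice in part fixes, were -0.30, -0.47 and -0.39. The closest to Rag2 were Msl2 (0.99), Snapc3 (0.99) and Ric1 (0.99), with log2 fold changes of 0.13, 0.14 and 0.13 in RNA-seq. The closest to Dntt were Tnfaip3 (0.99), Rmi2 (0.97) and Spg20 (0.97), with log2 fold changes of 0.33, 0.54 and 0.50 in RNA-seq. All of these values are descriptions with no test, since the genes were chosen over libraries that include the genotype contrast and the libraries share genotype and the mirrored pattern of replicate numbers.

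In the authors' deposited table of their own comparison, 1 of the 10 genes had an adjusted p under 0.05 in RNA-seq and 2 in footprints, beside 4.3% and 11% of the genes with an adjusted p there. For Rag1 the authors' deposited table gives a log2 fold change of -0.29 in RNA-seq (adjusted p 0.0410) and -0.30 in footprints (adjusted p 3.04e-06). For Dclre1c footprints the authors' deposited table gives 0.24 (adjusted p 0.0355). For Xrcc4 RNA the authors' deposited table gives 0.33 (adjusted p 0.139), so Rag1 and Xrcc4 RNA fell on opposite sides of the threshold in the authors' table and in the fit used here. In RefSeq (GRCm38.p6) Rag2, Xrcc6, Dclre1c and Prkdc overlap another gene, namely Iftap, Desi1, Suv39h2 and the pseudogene Gm52255. The strand setting of those counts is not stated either, so the levels of these 4 genes are less certain than those of the other 6.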

How the data were processed

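RNA-seq and ribosome footprints of thymocytes were measured in 3 WT and 3 KO libraries per assay, grouped and numbered by their titles. The values used are whole-number counts of reads per gene that the authors deposited and named adjusted; what was adjusted is not stated, and for the genome build, the annotation and the strandedness of counting the answer is likewise not given in the sources used here. FastQC, Bowtie2 2.5.1, STAR 2.7.10a, HTSeq 2.0.3 and DESeq2 1.40.2 are named in the submitters' processing notes, without their roles. The authors also deposited a table per assay of their comparison, with log2 fold changes and p-values per the file headers; 12 columns of per-library values in these were not used. Rows that name no gene held 71.5% to 73.0% of counted RNA-seq reads and 26.9% to 27.7% of footprint reads and were left out.

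Symbols were looked up by Ensembl ID, with 175 of 55335 rows left without one. RNA-seq and footprints were each tested in a fit of their own (edgeR 4.0.16 under R 4.3.3, TMM, filterByExpr with a minimum count of 10, quasi-likelihood test, Benjamini-Hochberg adjustment over all genes tested, threshold 0.05), and translation by the genotype-by-assay term in a fit of 12 libraries. CPM were computed from the TMM-scaled totals. The SE is the log2 fold change divided by the square root of F, and intervals are 95%. Fits were tested on simulated data with independent libraries and with changes larger than those of the 10 members. That setting lacks the mirrored deviations, so it does not bear on false calls in the deposited counts. The members and lists were chosen with earlier results of these data known. Named genes were the 10 members, the 2 deleted microRNA rows, up to 3 called genes per list and assay with the largest change, and the 3 genes most correlated with each of Rag1, Rag2 and Dntt where the average log2 CPM was 3 or more in both assays. The values of 1 listed gene that the rule names are not reported here. The alternatives tried were other size factors (RLE), another tool (DESeq2 1.42.0), no low-count filter, a block for replicate number, both assays in 1 fit and each library left out; DESeq2 with the block and the omissions for the read ratios were added after seeing the data. Levels per coding length, for which no lengths were at hand, were not computed, so levels of different genes are not compared per length.

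Replicates of a group were not 1 library deposited again, since their counts differed beyond sampling (chi-square per degree of freedom 3.43 to 13.0), so each counts as 1 replicate. The labels name 3 mice per genotype but do not tie libraries to mice, so p-values measure the spread between these libraries. Same-numbered WT and KO libraries were tied by mirrored deviations, whose origin was not tested. They deviated in opposite directions, which is a dependence between libraries. The fit without the block was kept as written and treats the libraries as independent, so its FDR values may be too small. The block is given beside it.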

Additional observations from a re-analysis of the deposited data

How the results depend on the processing

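The number of the 10 genes called in RNA-seq, 1 in the analysis reported, was 0 with DESeq2, 0 with the replicate block, 0 with DESeq2 and the block and 0 to 0 over the omissions of 1 library, and 4 in the joint fit of both assays (Rag1, Dntt, Xrcc4 and Dclre1c). In footprints the 2 calls became 0 with the replicate block and 0 with DESeq2 and the block, and stayed 2 under RLE, DESeq2, no filter, the joint fit and every omission. For translation the count was 0 under every alternative. Over all genes, RNA-seq calls numbered 943 without and 110 with the block, footprint calls 2376 and 408, and translation calls 25 and 2. DESeq2 called 532 genes for RNA-seq, 1248 for footprints and 46 for translation. The cause of these differences was not tested. The sign turned only where the change was near 0. Xrcc6 footprints, at -0.0025, were 0.00076 with RLE, 0.0012 with DESeq2 and 0.00043 with DESeq2 and the block. Over the omissions of 1 library the log2 fold change ranged from -0.044 to 0.059 for Lig4, -0.11 to 0.0023 for Prkdc and -0.071 to 0.0051 for Nhej1 in RNA-seq. In footprints it ranged from -0.070 to 0.0067 for Rag2, -0.072 to 0.054 for Xrcc5, -0.013 to 0.019 for Xrcc6, -0.096 to 0.046 for Prkdc and -0.10 to 0.23 for Nhej1. For translation it ranged from -0.032 to 0.084 for Rag1, -0.11 to 0.0058 for Dclre1c, -0.047 to 0.096 for Prkdc and -0.076 to 0.25 for Nhej1. Same-numbered libraries of the 2 genotypes deviated in opposite directions; whether the spread with or without the replicate block is nearer to that between mice was not tested. The level per coding length and its alternatives were not run. Nhej1 had 31 to 161 reads per library.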
